A study of Mus musculus with 24 samples.

Results

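The circadian clock genes examined here are Arntl (Bmal1 in newer annotations), Npas2, Clock, Per1, Per2, Per3, Cry1, Nr1d1, Nr1d2 and Dbp, 10 of the 78275 genes in the count table, chosen by symbol. They were read in 24 poly(A)-selected RNA libraries of lung from male C57BL/6 mice aged 20 weeks, in 8 groups of 3. DE+PFD+RIC mice breathed diesel exhaust for 30 min a day on 5 days a week over about 8 weeks, took the antifibrotic drug pirfenidone by mouth at 300 mg/kg a day on 6 days a week, and had remote ischemic conditioning of the left leg during the exposure. That conditioning was 3 cycles of 5 min without blood flow and 5 min with it, on 3 days a week for 4 weeks. RIC+DE+PFD mice had the same treatments with the conditioning placed before the exposure. DE+RIC and RIC+DE mice were conditioned during and before the exposure, without the drug. DE+PFD mice had exhaust and the drug, DE mice exhaust alone, RIC mice conditioning alone, and C mice none of these. No group is labelled as given the drug's carboxymethylcellulose vehicle alone. The labels also give a batch date, without saying what was done on it: 9 libraries are dated March, 14 October and 1 (DE+RIC 3) November. All RIC+DE libraries are from March and all DE libraries from October. The labels do not say that each library is a separate mouse, so the p-values measure the spread between libraries. The hour of day at which lungs were taken was not given in the sources used here.

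The mammalian clock is a loop of transcription that takes about a day. The activators BMAL1 (the product of Arntl) and CLOCK, or its paralog NPAS2, bind E-box sequences and switch on the Per and Cry genes, whose proteins return to the nucleus and block the activators. The same activators switch on Nr1d1 and Nr1d2, which encode the repressors REV-ERB alpha and beta, and these hold down Arntl through their own binding sites. Dbp, another E-box gene, encodes an activator at D-box sites. In mouse lung, as in other tissues, Arntl and Npas2 peak at one end of the day and Nr1d1, Dbp and Per3 at the other, and airway club cells are known to carry a strong clock. In whole tissue, fewer cells of a type and less RNA per cell cannot be told apart.

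All 10 genes passed the filter on low counts, with 10 reads in the lowest library (Npas2 in DE 2). Levels are CPM, counts scaled to each library's total after TMM correction. Set per kilobase of exon, a level that can be compared between genes, Nr1d1 was the most abundant at 36.8 CPM per kb as a mean of 24 libraries, ahead of Dbp at 20.3 and Per1 at 17.7. Nr1d2 and Per2 lay at 10.9 and 10.0, Cry1 at 7.79 and Per3 at 5.55. The 3 activator genes were the least abundant per kilobase, Arntl at 4.16, Clock at 3.99 and Npas2 at 2.52. Each step in this order was smaller, on the log2 scale, than the SD between libraries of the more variable gene of the step, so neighbours in the order do not differ beyond their spread.

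The letters upstream of the genes are shown because the sites named above are short sequences that can be read there. RefSeq windows of 300 bases on GRCm38.p6, 250 before and 50 after each start, were given for 9 of the 10 genes (13 windows, as some genes have several starts). Both strands were searched for the E-box CACGTG, the E-prime-box CACGTT, the D-box TTATGNAA and the REV-ERB response element (RORE) TAGGTCA, motifs that do not overlap each other in these windows. The 250 bases before the start are printed for Npas2, Nr1d1 and Dbp, the genes with the widest range between libraries on each side of the loop, and for Per1, Per3 and Cry1, chosen after the search because they hold matches. Capitals mark the matches, and the strand is that of the gene.
Npas2: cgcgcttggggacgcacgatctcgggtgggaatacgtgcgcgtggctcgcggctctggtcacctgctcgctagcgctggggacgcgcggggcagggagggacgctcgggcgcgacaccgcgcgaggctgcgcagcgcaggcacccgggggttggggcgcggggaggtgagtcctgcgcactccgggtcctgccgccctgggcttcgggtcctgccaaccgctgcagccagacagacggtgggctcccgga
Nr1d1: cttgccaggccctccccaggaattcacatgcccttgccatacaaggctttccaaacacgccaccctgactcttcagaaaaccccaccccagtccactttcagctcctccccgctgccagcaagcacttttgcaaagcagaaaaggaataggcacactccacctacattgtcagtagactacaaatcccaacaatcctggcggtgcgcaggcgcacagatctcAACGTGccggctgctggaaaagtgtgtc
Dbp: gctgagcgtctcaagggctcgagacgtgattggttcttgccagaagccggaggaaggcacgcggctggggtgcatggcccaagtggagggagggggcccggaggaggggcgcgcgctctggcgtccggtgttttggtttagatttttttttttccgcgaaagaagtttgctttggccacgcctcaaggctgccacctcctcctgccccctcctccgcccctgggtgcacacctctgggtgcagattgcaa
Per1: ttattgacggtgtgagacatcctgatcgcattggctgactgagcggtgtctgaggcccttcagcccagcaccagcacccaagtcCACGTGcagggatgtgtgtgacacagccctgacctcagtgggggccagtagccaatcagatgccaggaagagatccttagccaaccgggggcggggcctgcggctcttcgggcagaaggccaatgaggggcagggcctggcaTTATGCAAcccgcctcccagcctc
Per3: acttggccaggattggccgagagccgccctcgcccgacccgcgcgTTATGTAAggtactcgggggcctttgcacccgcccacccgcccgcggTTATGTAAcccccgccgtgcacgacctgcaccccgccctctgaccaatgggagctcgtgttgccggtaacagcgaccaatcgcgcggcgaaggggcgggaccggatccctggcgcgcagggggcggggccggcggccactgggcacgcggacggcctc
Cry1: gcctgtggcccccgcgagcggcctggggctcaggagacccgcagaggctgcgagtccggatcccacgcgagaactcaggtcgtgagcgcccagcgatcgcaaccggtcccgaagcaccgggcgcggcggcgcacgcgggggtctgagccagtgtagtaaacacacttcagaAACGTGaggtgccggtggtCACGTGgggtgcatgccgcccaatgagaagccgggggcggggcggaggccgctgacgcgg
The windows are Npas2 at chr1:39194022-39194271, plus strand, Nr1d1 at chr11:98775378-98775627, minus strand, Dbp at chr7:45704997-45705246, plus strand, Per1 at chr11:69098699-69098948, plus strand, Per3 at chr4:151044666-151044915, minus strand, and Cry1 at chr10:85185055-85185304, minus strand. For Arntl, only the match and 10 bases on either side are shown (chr7:113207531-113207557, plus strand), since the match lies after the start.
Arntl: aggcagaaagTAGGTCAgggacggagg
Matches were found in 5 of the 13 windows. Counted from the start, with bases before it negative, Per1 held an E-box at -166 and a D-box at -24, and Per3 a D-box at -205 and another at -158. Cry1 held an E-box at -60 and an E-prime-box at -79, Nr1d1 an E-prime-box at -28, and Arntl a RORE at 30, after its second listed start. Over all 32851 RefSeq windows of the same length, 7.15% held the E-box, 4.68% the E-prime-box, 3.38% the D-box and 2.61% the RORE. A match is a run of letters and not a measured site, and windows without one say only that these letters were not found there.

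Arntl, the activator without which the loop stops, varied inside groups about as much as over the whole series. Its 3 libraries stood at 56.5, 48.5 and 12.4 CPM in DE+PFD+RIC, 42.4, 5.73 and 11.8 in RIC+DE+PFD, 50.2, 49.5 and 35.9 in DE+PFD, with 19.5, 11.9 and 23.9 in DE+RIC. They stood at 22.6, 10.8 and 33.2 CPM in RIC+DE, 40.7, 12.7 and 25.8 in DE, 34.7, 37.0 and 56.4 in RIC and 8.00, 47.4 and 53.2 in C. In 5 of the 8 groups (DE+PFD+RIC, RIC+DE+PFD, RIC+DE, DE and C) the highest library was at least 3 times the lowest. Such groups numbered 7 of 8 for Dbp, 5 for Nr1d1 and Nr1d2, 4 for Npas2 and Per2, 3 for Per3, 2 for Cry1, 1 for Per1 and 0 for Clock. C is the plainest case, with library 1, from March, low and libraries 2 and 3, from October, high. The SD of log2 CPM was 0.987 over all 24 libraries and 0.979 within groups. Over the 15855 genes with a mean of at least 1 CPM the medians were 0.364 and 0.337. Batch dates were not taken out of these SDs.

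Npas2, whose product can stand in for CLOCK, covered a wider range, 1.49 CPM (DE 2) to 28.0 CPM (DE+PFD 1), or 18.8-fold. It was at 28.0, 23.5 and 16.6 CPM in DE+PFD, 5.71, 2.93 and 4.62 in DE+RIC and 12.9, 1.49 and 9.84 in DE. Every DE+PFD library lay above every DE library, as did those of 5.89% of all genes. Each also lay above every DE+RIC library, for which the share of all genes was not counted. The highest libraries of C, RIC and DE+PFD+RIC, at 24.3, 22.8 and 20.9 CPM, lay within the range of DE+PFD. Clock, the usual partner of BMAL1 in many tissues, kept to a 3.65-fold range. Its libraries held 79.8, 79.0 and 44.2 CPM in DE+PFD+RIC, 21.8, 34.0 and 34.5 in RIC+DE+PFD, 70.4, 49.2 and 68.7 in DE+PFD, with 56.1, 52.4 and 62.1 in DE+RIC. The others held 64.4, 58.7 and 61.9 CPM in RIC+DE, 46.7, 50.6 and 54.8 in DE, 56.7, 52.9 and 57.9 in RIC and 58.3, 51.1 and 48.8 in C. RIC+DE+PFD was the low group and did not overlap any other, and DE+PFD+RIC held the highest pair of libraries. How many of all genes set a group apart in this way was not counted. The lowest library, RIC+DE+PFD 1, had a scaling factor of 0.638. The SD of log2 CPM within groups was 0.253 for Clock, below the median gene, and above it for each of the other 9.

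The Per genes encode the repressor proteins whose build-up closes the loop. Per2 libraries stood at 96.1, 56.1 and 67.4 CPM in DE+PFD+RIC, 10.5, 173 and 91.3 in RIC+DE+PFD, 49.3, 72.8 and 22.1 in DE+PFD, with 25.4, 55.3 and 25.7 in DE+RIC. Per2 stood at 129, 145 and 56.2 CPM in RIC+DE, 13.0, 36.6 and 21.3 in DE, 90.5, 19.9 and 42.6 in RIC and 87.9, 11.6 and 10.8 in C. The 3 RIC+DE libraries lay above all DE libraries, and RIC+DE+PFD held both the lowest and the highest library of the series. Per3, a member of the family not needed for the rhythm itself, was at 93.7, 141 and 61.7 CPM in RIC+DE, 26.2, 52.1 and 30.6 in DE and 109.8, 21.3 and 17.5 in C. Here too C 1, from March, stood apart from C 2 and C 3, from October. Over all 24 libraries Per3 ranged from 15.2 to 141 CPM. Per1, which answers to glucocorticoid hormone as well as to the clock, ranged from 19.8 to 204 CPM, and both ends were RIC+DE+PFD libraries (1 and 2).

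Cry1 encodes a strong repressor of the activator pair, and its gene is known to be governed by REV-ERB as well as by E-boxes. Cry1 was measured at 54.9, 24.5 and 12.5 CPM in DE+PFD+RIC, 22.9, 36.6 and 45.2 in RIC+DE+PFD, 43.5, 39.3 and 16.5 in DE+PFD, with 11.9, 10.8 and 11.1 in DE+RIC. It was at 37.0, 42.7 and 21.7 CPM in RIC+DE, 11.7, 8.21 and 9.67 in DE, 42.2, 12.3 and 36.3 in RIC and 36.1, 20.2 and 16.9 in C. DE and DE+RIC were uniformly low, with all 6 libraries between 8.21 and 11.9 CPM, and the next lowest libraries were RIC 2 and DE+PFD+RIC 3. All 6 of those low libraries come from October or November.

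Nr1d1 had the widest range of the 10. Its level was 3.45, 71.4 and 340.1 CPM in DE+PFD+RIC, 41.8, 154 and 56.5 in RIC+DE+PFD, 3.10, 4.55 and 90.5 in DE+PFD, with 236, 309 and 238 in DE+RIC. The remaining groups had 12.4, 45.5 and 119.7 CPM in RIC+DE, 150.5, 254 and 175 in DE, 4.97, 157 and 18.9 in RIC and 73.5, 88.9 and 72.5 in C. DE and DE+RIC were uniformly high, while DE+PFD+RIC, DE+PFD and RIC each held libraries under 5 CPM beside libraries over 70. Nr1d2, its paralog, ranged from 10.4 CPM (DE+PFD 2) to 135 CPM (C 1). The exons of Nr1d1 overlap those of Thra on the opposite strand, and the strand setting of the counting was not given in the sources used here. Thra, a thyroid hormone receptor, stayed within a 1.85-fold range (117 to 217 CPM).

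Dbp, an output gene of the clock, was likewise uneven within groups. Dbp libraries stood at 6.04, 11.8 and 193 CPM in DE+PFD+RIC, 23.3, 161 and 72.5 in RIC+DE+PFD, 5.15, 13.9 and 19.5 in DE+PFD, with 106, 181 and 94.3 in DE+RIC. Dbp stood at 16.9, 46.3 and 55.2 CPM in RIC+DE, 29.9, 178 and 52.2 in DE, 10.4, 53.6 and 7.48 in RIC and 90.2, 13.9 and 14.7 in C. The highest libraries, DE+PFD+RIC 3, DE+RIC 2, DE 2 and RIC+DE+PFD 2, came from 4 different groups and are all dated October. DE+PFD stayed below 20 CPM in all 3 libraries. Sphk2, whose exons overlap Dbp on the opposite strand, stayed between 35.2 and 59.1 CPM.

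**Figure D1:**
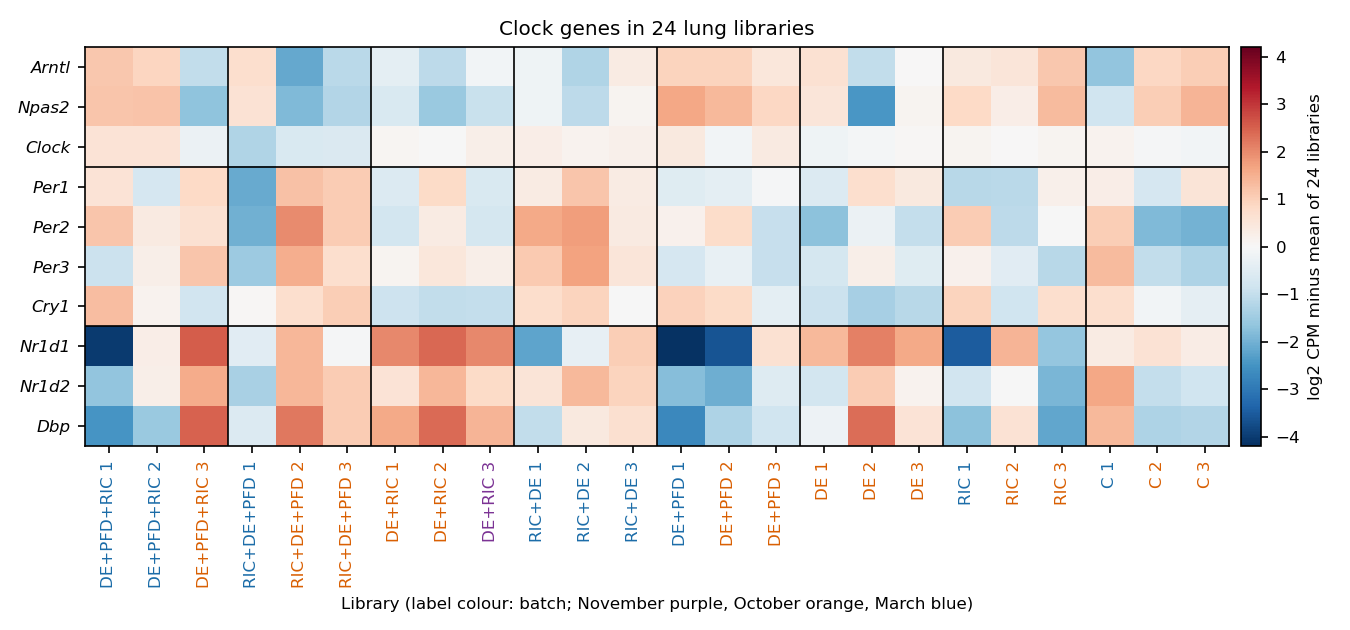
Log2 CPM of the 10 clock genes in each of the 24 libraries, centred on each gene's mean over the libraries (colour, log2 units), with libraries side by side within their group. Libraries of a group, such as C 1 (March) against C 2 and C 3 (October), show opposite colours for Arntl and Npas2 against Per3, Nr1d2 and Dbp.

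**Figure D2:**
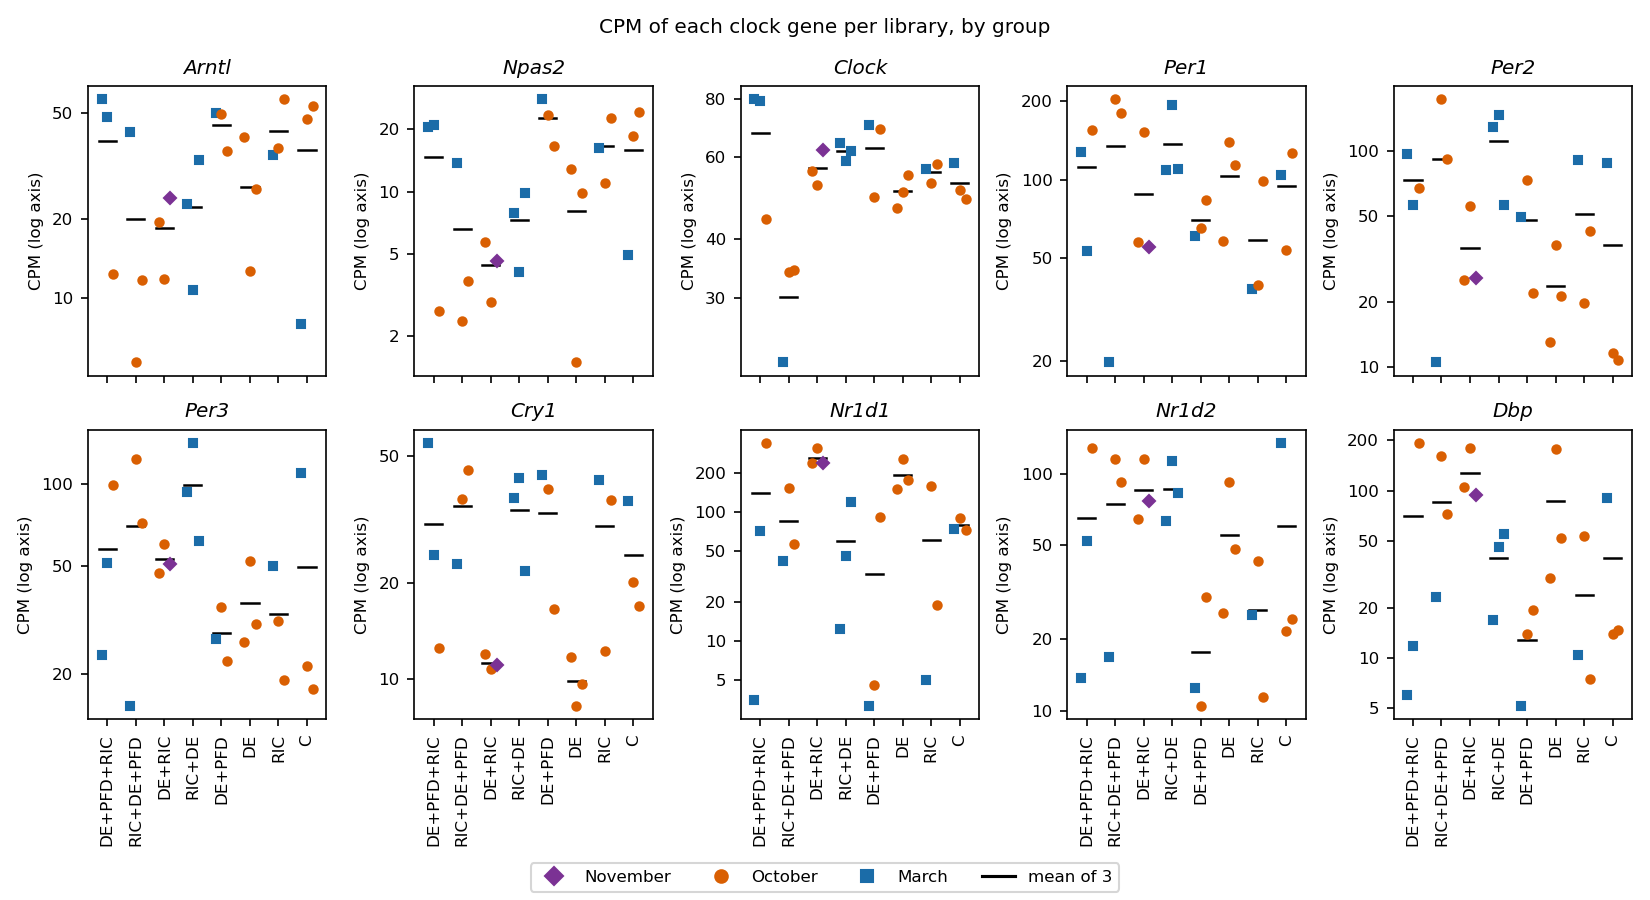
CPM of each clock gene per library on a log axis (points coloured by batch date) with the mean of the 3 libraries of each group (line). Nr1d1 spans 3.10 to 340.1 CPM and Clock only 21.8 to 79.8 CPM.

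Over the libraries, Npas2 rose with Arntl, and Nr1d2, Per3, Dbp, Per1, Per2 and Nr1d1 were lower where Arntl was higher. Npas2 and Arntl had a Pearson's r of 0.919 and a Spearman's rho of 0.923 (n = 24 libraries, two-sided permutation p of 1e-05, the smallest the resampling can give, adjusted over 9 pairs to 2.25e-05). Nr1d2 had r = -0.873, Per3 r = -0.838 and Dbp r = -0.83 with Arntl, each at the same adjusted permutation p of 2.25e-05. Per1 had r = -0.597 (permutation p adjusted to 0.00389), Per2 r = -0.514 (adjusted to 0.0159) and Nr1d1 r = -0.486 (adjusted to 0.0202). Clock, at r = 0.283, and Cry1, at r = 0.076, did not pass (permutation p adjusted to 0.208 and 0.724). Thus 7 of the 9 genes passed, 1 in the direction of Arntl and 6 against it. The share of all genes that would pass with Arntl at the same threshold was not computed.

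Within batches the strongest pairs passed on both dates. Over the 14 October libraries r with Arntl was 0.944 for Npas2, -0.938 for Per3, -0.921 for Nr1d2 and -0.906 for Dbp, and over the 9 March libraries 0.935, -0.825, -0.821 and -0.8 for the same genes. Clock had r = 0.6 with Arntl in October and passed there (permutation p adjusted to 0.0287). Its Spearman's rho in October was 0.393 and did not pass (permutation p adjusted to 0.186). In March Clock had r = 0.031 (exact permutation p adjusted to 0.944). Over the 23 libraries without RIC+DE+PFD 1 it had r = 0.524 and passed (permutation p adjusted to 0.0151). There too rho, at 0.326, did not pass (permutation p adjusted to 0.146). Per1, Per2 and Nr1d1 had r of -0.7, -0.711 and -0.554 in October and -0.499, -0.452 and -0.453 in March, where none of these passed (exact permutation p adjusted to 0.296 for each). On what was left after group and batch means were taken out (23 libraries, since the November library has its own term), r was 0.937 for Npas2, -0.932 for Per3, -0.889 for Nr1d2 and -0.831 for Dbp. Nr1d1 fell short there, at -0.334 (adjusted permutation p of 0.154). Without the 2 libraries farthest from the median of Arntl (RIC+DE+PFD 2 and C 1), r was 0.948 for Npas2, -0.79 for Per3, -0.875 for Nr1d2, -0.831 for Dbp, -0.556 for Per1 and -0.512 for Nr1d1, all still past the threshold, while Per2 had r = -0.38 and no longer passed (adjusted permutation p of 0.105).

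**Figure D3:**
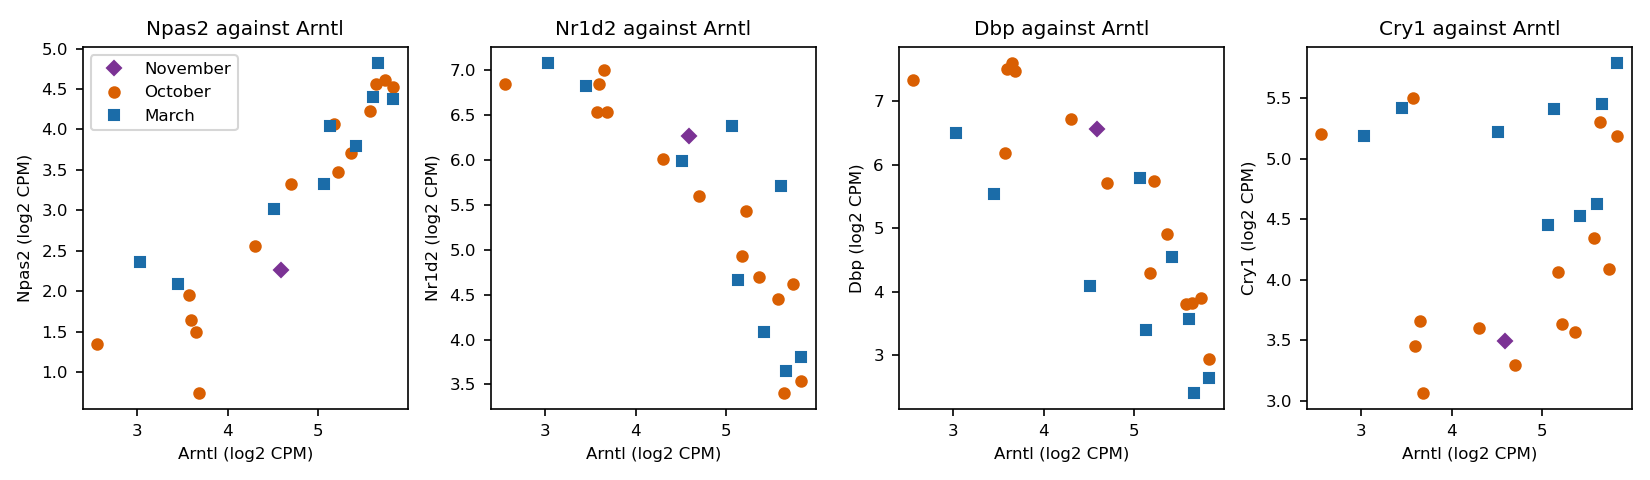
Log2 CPM of Npas2, Nr1d2, Dbp and Cry1 (vertical axes) against log2 CPM of Arntl (horizontal axes), a point per library, coloured by batch date. Npas2 climbs with Arntl (r = 0.919), Nr1d2 and Dbp descend (r = -0.873 and -0.83), and Cry1 shows no trend (r = 0.076).

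Cry1 stood against Nr1d1 rather than against Arntl. Among the 36 pairs without Arntl, computed after the first pairs were seen, Cry1 and Nr1d1 had r = -0.806 and rho = -0.863 (n = 24, permutation p adjusted over 36 pairs to 6e-05), with r of -0.745 in October, -0.769 in March and -0.771 without the 2 libraries farthest from the median of Cry1. Nr1d1 rose with Dbp (r = 0.813, adjusted permutation p of 6e-05), and Nr1d2 with Dbp (r = 0.857) and with Per3 (r = 0.836). Per2 rose with Per3 (r = 0.766) and with Cry1 (r = 0.632), though Per3 and Cry1 themselves had r = 0.158. Npas2 and Dbp were the most opposed pair of all, at r = -0.919. The genes opposed to Arntl did not all move together: Nr1d1 had r = -0.343 with Per2, 0.193 with Per1 and 0.236 with Per3, and Dbp had r = 0.11 with Per2 and 0.396 with Per1, none of which passed. Nr1d2 and Per2 (r = 0.376) and Npas2 and Per2 (r = -0.353) did not pass either. In all, 17 of the 36 pairs passed, 10 positive and 7 negative, and none of the 17 included Clock. The share among pairs of other genes was not computed.

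**Figure D4:**
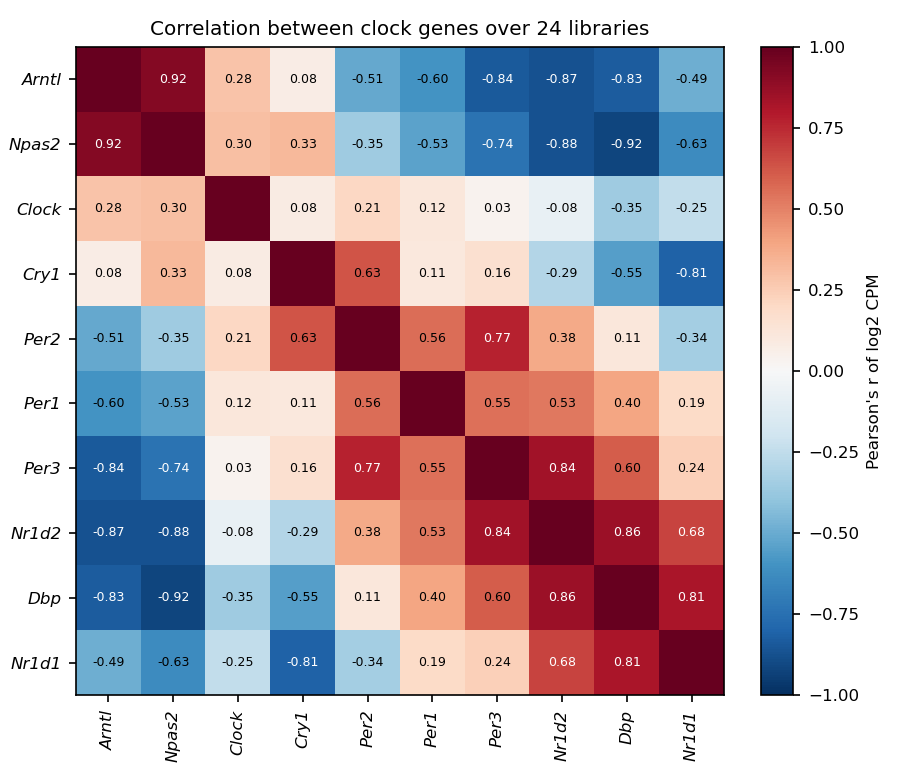
Pearson's r of log2 CPM between each pair of clock genes over 24 libraries (colour and printed value). Arntl and Npas2 are positive to each other and negative to Per3, Nr1d2 and Dbp, and Cry1 is most negative to Nr1d1 (-0.81).

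Between lungs exposed to diesel exhaust and healthy lungs, Cry1 and Nr1d1 were the clock genes whose libraries did not overlap, Cry1 lower and Nr1d1 higher in DE. None of the 10 passed the edgeR threshold of an adjusted p under 0.05 (0 of 17490 genes did, 0%), and 1 had an unadjusted p under 0.05 (3.33% of all genes). That was Cry1, at 9.87 ± 1.76 CPM in DE and 24.4 ± 10.3 CPM in C (SD, n = 3 each), a log2 difference of -1.01 ± 0.48 (SE, edgeR adjusted p = 0.988). Its DE libraries lay below all C libraries, as did those of 6.86% of genes. Nr1d1 in DE lay above all C libraries (7.6% of genes did), at 150.5 to 254 CPM in DE and 72.5 to 88.9 CPM in C. With the batch term its log2 difference was only 0.15 ± 1.15, and 1.30 ± 1.18 with no batch term. All DE libraries are from October and C 1 is from March. The median log2 difference of the 10 was -0.31, against -0.001 over all genes.

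Conditioning in healthy mice gave no called clock gene (0 of 10, and 0% of all genes), nor any of the 10 at an unadjusted p under 0.05 (1.2% of all genes). No member's libraries were separated, and few genes' were (2.24% of all genes higher in RIC and 2.67% lower). Dbp was at 10.4, 53.6 and 7.48 CPM in RIC and 90.2, 13.9 and 14.7 CPM in C, with the high library in a different place in each group. The log2 difference of Dbp was -1.67 ± 1.10 and that of Nr1d2 -1.38 ± 0.83 (SE, n = 3 each, edgeR adjusted p of 1.00 for both). Without C 1 both differences changed sign, to 1.49 ± 0.89 for Dbp and 0.75 ± 0.72 for Nr1d2. Per1 was at 37.9, 39.2 and 98.5 CPM in RIC and 104, 53.4 and 126 CPM in C.

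With pirfenidone in exposed mice, Cry1 and Npas2 were higher and Dbp and Nr1d1 lower in every library, with no call (0 of 10, 0% of all genes). Cry1 was at 43.5, 39.3 and 16.5 CPM in DE+PFD against 11.7, 8.21 and 9.67 CPM in DE, a log2 difference of 1.46 ± 0.48 (SE, n = 3 each, edgeR unadjusted p = 0.00657). Nr1d1 differed by -2.33 ± 1.09 and Dbp by -2.41 ± 1.09 on the log2 scale. Npas2 differed by 1.21 ± 0.74. DE+PFD 1 is from March and all DE libraries are from October. Within DE+PFD, that March library had the highest Cry1 and Npas2 and the lowest Dbp and Nr1d1. Fitted October minus March differences were 2.31 ± 0.78 for Nr1d1, 1.55 ± 0.79 for Dbp, -0.68 ± 0.31 for Cry1 and -0.72 ± 0.53 for Npas2. The libraries did not overlap for Cry1 and Npas2, higher in DE+PFD (5.89% of all genes), and for Dbp and Nr1d1, lower in DE+PFD (5.28%). The edgeR adjusted p was 1.00 for each of the 3 genes with an unadjusted p under 0.05 (Cry1, Dbp and Nr1d1, beside 2.84% of all genes). The median over the 10 was -0.01, with 5 above 0 and 5 below. Without DE+PFD 3 the Nr1d1 difference was -4.64 ± 1.41, and without DE 2 that of Dbp was -1.33 ± 1.12. T and B cell markers summed to 106 to 147 CPM in DE+PFD against 208 to 458 CPM in DE, with 6 of 6 lower and 5 at an unadjusted p under 0.05. Mitochondrially encoded genes summed to 7000 to 16693 CPM in DE+PFD against 14134 to 25272 CPM in DE, with 7 of 7 lower. None of either list was called, and their part in the clock values was not tested.

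Conditioning before exhaust, RIC+DE against DE, is a comparison of March with October libraries. Clock, Cry1, Per2 and Per3 were higher in every RIC+DE library than in any DE library (21% of all genes were), and Nr1d1 was lower (20.6%), at 12.4, 45.5 and 119.7 CPM in RIC+DE and 150.5, 254 and 175 CPM in DE. With the batch term, learned from the 5 groups that hold both dates, Nr1d1 differed by 0.60 ± 1.26 log2 units, and with no batch term by -1.70 ± 1.19, the opposite sign. Per2 differed by 1.51 ± 0.99 with the term and Per3 by 1.37 ± 0.84. None of the 10 was called (0% of all genes) or had an unadjusted p under 0.05, whereas 17.3% of all genes did. The median of the 10 was 0.844, against 0.004 over all genes. Skeletal muscle markers summed to 1816, 26.3 and 983 CPM in RIC+DE 1, 2 and 3, against 27.8 to 47.5 CPM in DE. Lung markers summed to 29675.5 to 48737 CPM in RIC+DE against 59876 to 98223 CPM in DE, with 3 of 8 higher and 5 lower in the fit. T and B cell markers summed to 99.4 to 114 CPM in RIC+DE against 208 to 458 CPM in DE. Mitochondrially encoded genes summed to 7774 to 18502 CPM in RIC+DE against 14134 to 25272 CPM in DE, with 7 of 7 lower in the fit at an unadjusted p under 0.05. The part of these in the clock values was not tested.

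Conditioning during exhaust was set against exhaust alone, with all libraries from October but DE+RIC 3. With the November library included, DE+RIC and DE overlapped for all 10 genes (6.31% of all genes were higher and 6.03% lower in every DE+RIC library). Of the 10, 0 were called (0% of all genes), and none had an unadjusted p under 0.05 (3.23% of all genes). Nr1d1 was at 236, 309 and 238 CPM in DE+RIC and 150.5, 254 and 175 in DE, a log2 difference of 0.50 ± 1.13, and Cry1 differed by 0.20 ± 0.52 (SE). DE+RIC 3 is the November library and has a batch term of its own, so it adds nothing to these differences, which rest on DE+RIC 1 and 2. Set against RIC+DE, conditioning during exhaust had Dbp and Nr1d1 higher in every library (20% of all genes) and Cry1, Per2 and Per3 lower in every library (18.8%), with 0 of 10 called (0% of all genes) and none with an unadjusted p under 0.05 (13.8%). Those groups share no batch either. Nr1d1 differed there by -0.10 ± 1.35 log2 units with the batch term and by 2.14 ± 1.21 with none.

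Where pirfenidone was joined to conditioning before the exposure, Clock was lower and Cry1 higher than in DE in every library, without passing the test. Clock was at 30.1 ± 7.17 CPM in RIC+DE+PFD and 50.7 ± 4.10 CPM in DE (SD, n = 3 each), a log2 difference of -0.78 ± 0.21 (SE, edgeR adjusted p = 0.282). Cry1 was at 34.9 ± 11.3 CPM in RIC+DE+PFD and 9.87 ± 1.76 CPM in DE, a difference of 1.69 ± 0.47 (edgeR adjusted p = 0.300). Both separated the groups' libraries, Clock lower (6.41% of all genes) and Cry1 higher (5.55%). With October libraries alone the Cry1 difference was 2.03 ± 0.38 and passed edgeR's threshold (adjusted p = 0.0489). The share of all genes passing in that fit is not given here. Per2 also had an unadjusted p under 0.05, so 3 of the 10 did, against 9.52% of all genes, and 0 of 10 were called (0%).

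Against DE+PFD, the same RIC+DE+PFD libraries had Clock at 21.8, 34.0 and 34.5 CPM, against 70.4, 49.2 and 68.7 CPM in DE+PFD. The log2 difference was -1.04 ± 0.21 (SE, edgeR adjusted p = 0.114), and DESeq2 on the same counts gave an adjusted p of 0.00133. The share of all genes that DESeq2 called is not given here. Clock and Npas2 were lower in every RIC+DE+PFD library (6.99% of all genes) and Dbp higher in every one (5.88%). Npas2 differed by -1.95 ± 0.74, Dbp by 2.63 ± 1.07 and Nr1d2 by 1.98 ± 0.82. With Clock these made 4 of 10 at an unadjusted p under 0.05 (17.4% of all genes), and 0 of 10 were called by edgeR (0%). Without RIC+DE+PFD 1 the Clock difference was -0.77 ± 0.17 (edgeR adjusted p = 0.260). That library had lung marker genes at a summed 242821 CPM, against 29675.5 to 98223 CPM in the other 23, a scaling factor of 0.638, and the lowest Clock, Per1, Per2 and Per3 of the series. Its part in the result was not tested beyond leaving it out.

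Conditioning during rather than before exhaust, both with pirfenidone, gave the smallest adjusted p of any clock gene. Clock was at 79.8, 79.0 and 44.2 CPM in DE+PFD+RIC and 21.8, 34.0 and 34.5 CPM in RIC+DE+PFD, a log2 difference of 1.09 ± 0.22 (SE, edgeR adjusted p = 0.0656), and its libraries did not overlap (10.9% of all genes, higher in DE+PFD+RIC). It was the only one of the 10 with an unadjusted p under 0.05, against 28.2% of all genes, and 0 of 10 were called (0%). Within October the Clock difference was 0.36 ± 0.20, where DE+PFD+RIC 3 is the sole library of its group. Within March it was 1.92 ± 0.21, where RIC+DE+PFD 1 is the sole library of its group. Without RIC+DE+PFD 1 the Clock difference was 0.74 ± 0.19 (edgeR adjusted p = 0.840).

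In DE+PFD+RIC the 3 libraries lay far apart. Arntl was high in libraries 1 and 2, both from March, and low in library 3, from October. Nr1d1 stood at 3.45, 71.4 and 340.1 CPM. Against DE+PFD, Nr1d1 differed by 2.63 ± 1.12 log2 units, Dbp by 2.34 ± 1.06 and Nr1d2 by 1.89 ± 0.82, the 3 of 10 with an unadjusted p under 0.05 (4.26% of all genes). Without DE+PFD+RIC 3 the Dbp difference was -0.09 ± 1.21 and that of Nr1d2 0.81 ± 0.99, and without DE+PFD 3 that of Nr1d1 was 4.72 ± 1.37. All 10 overlapped (6.46% of all genes were higher and 5.36% lower in every library), and 0 were called by edgeR (0% of all genes). Against DE, Cry1 and Per2 were higher in every library (15.4% of all genes), by 1.07 ± 0.52 and 1.18 ± 0.87 log2 units (SE), and 0 of 10 were called (0%) or had an unadjusted p under 0.05 (9.23%). The 5 comparisons set against DE share its 3 libraries, all from October.

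**Figure D5:**
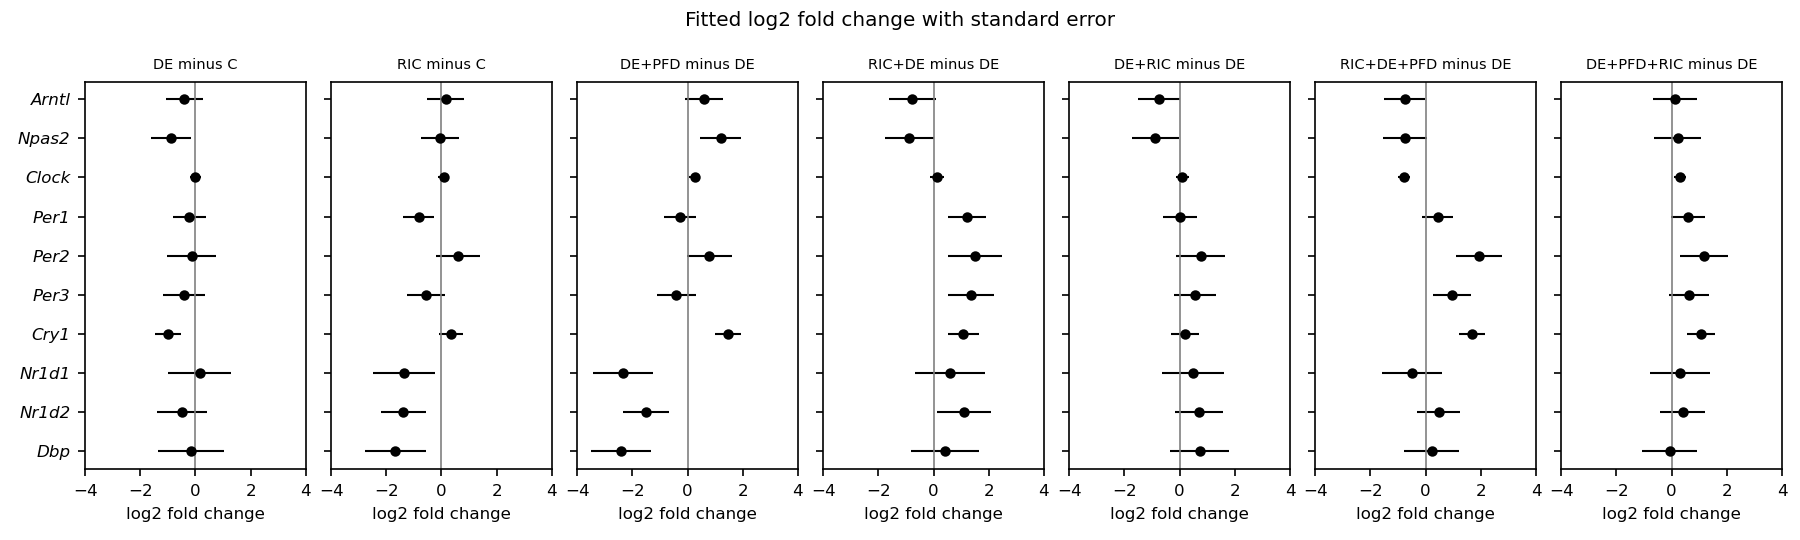
Fitted log2 differences (horizontal axis) of the 10 clock genes in 7 of the 11 group comparisons, 2 against C and 5 against DE, first-named group minus second, with standard errors from edgeR (bars). None passed an adjusted p of 0.05. Cry1 lies at 1.46 ± 0.48 in DE+PFD minus DE, where Nr1d1, Nr1d2 and Dbp lie below 0.

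Between batch dates, within groups, Nr1d1 was higher in October than in March by 2.31 ± 0.78 log2 units (SE, edgeR adjusted p = 0.175) and Cry1 differed by -0.68 ± 0.31 (adjusted p = 0.309). Neither passed: 0 of 10 did, beside 0.00572% of all genes, and these 2 had an unadjusted p under 0.05 (14.8% of all genes). Without RIC+DE+PFD 1, edgeR called Clock at -0.35 ± 0.11 (adjusted p = 0.0456) and Cry1 at -1.02 ± 0.28 (adjusted p = 0.0224). They were 2 of 2317 genes called in that fit, whose share of all genes is not given here. In edgeR's test of any difference among the 8 groups, the adjusted p was 0.279 for Clock and 0.320 for Cry1. These were the 2 of 10 with an unadjusted p under 0.05 (14.4% of all genes), and 0 of 10 were called (0%).

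The rest of the clock machinery gave no call either, and no test called more than 0.00572% of all genes. Of 11 other clock transcription factors 10 passed the filter, all but Rorb, and 0 were called in any of the 13 tests. In edgeR's test of any group, 1 of these 10 had an unadjusted p under 0.05, beside 14.4% of all genes. Ciart, a repressor of the activator pair, was not that gene (edgeR adjusted p = 0.511). Of 8 kinases and ubiquitin ligase subunits that set the stability of PER and CRY, all passed the filter and 0 were called. Btrc, a ligase subunit for PER, was at 27.5 to 34.0 CPM in RIC+DE+PFD and 30.2 to 35.2 in DE, and Gsk3b, a kinase of clock proteins, at 26.5 to 62.4 CPM in RIC+DE+PFD and 53.6 to 69.8 in DE. None of the 8 clock output genes was called, with the leading genes Tspan4 and Leo1 at an edgeR adjusted p of 0.303 and 0.388 for any group.

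Genes outside the 10 whose levels ran most like Arntl over the 24 libraries, of 13702 ranked at a mean of at least 1 CPM, were Ccnjl (r = 0.864), Clmp (0.815), Leo1 (0.804), Eln (0.793), which encodes elastin, and Foxs1 (0.791). Those most opposed were Tspan4 (r = -0.866), Tef (-0.858), a D-box activator related to Dbp, Tbcd (-0.829), Pitpnb (-0.794) and Esm1 (-0.779). With Dbp, Tex11 (r = 0.811), Esm1 (0.807), Hdac11 (0.786), Por (0.745) and Zfp346 (0.73) ran most alike. The most opposed were Dtx4 (r = -0.875), Nfil3 (-0.865), the repressor at D-box sites, Cxcl5 (-0.844), a chemokine that draws neutrophils, Slc16a10 (-0.794) and Adra1a (-0.753). These are descriptions over libraries that differ in depth, batch date and group, with batch and group not taken out. Leo1, Tspan4, Tef and Nfil3 were already on the clock lists above.

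The tissue was lung by its markers, all 8 of which passed the filter and summed to at least 29675.5 CPM in every library. Total counts ran from 3906807 to 18494156 per library. Sums of cardiac muscle markers were 1250 to 3954 CPM in RIC+DE against 291 to 1539 CPM in the other groups, and of adipocyte markers 306 to 2627 CPM in DE against 136 to 299 CPM in C. Skeletal muscle markers outside RIC+DE summed to 7.87 to 47.5 CPM, with Myh4 and Pvalb below the filter. The part of these cells in the clock values was not tested.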

How the data were processed

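Total RNA of lung was made into poly(A)-selected, strand-specific libraries, per the labels' protocols. Per the submitters' processing notes, FastQC 0.12.1, fastp 0.23.4, STAR 2.7.11b with GRCm39 and featureCounts were used, and the authors deposited whole-number read counts per gene for 78275 genes in 24 libraries, not scaled. The annotation release, strand setting and treatment of multiply matching reads were not given in the sources used here.

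Symbols and exon lengths came from GENCODE for GRCm38, matched by gene identifier (51486 genes had a symbol, with 98.45% of counts). The test was edgeR 4.0.16's quasi-likelihood F test (R 4.3.3, TMM scaling, group and batch date as terms) on all 24 libraries and on the 17490 genes kept by filterByExpr, with p-values adjusted by Benjamini-Hochberg over all genes tested. The standard error is the log2 difference over the square root of F. CPM are TMM-scaled, and log2 CPM used a prior count of 2. Correlations used two-sided permutation tests with 100000 resamples, or every ordering for the 9 March libraries. DESeq2 1.42.0 was an alternative. The fits were tested on simulated data.

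The clock genes, the gene lists and the tests were chosen with earlier results of these data known. Named are the 10 clock genes in every comparison, from each list the genes called or, with none called, the 2 with the smallest p over groups, and the 5 genes most and least like Arntl and Dbp. A gene that this rule selects is not reported here. Replicate numbers did not pair the libraries.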

Additional observations from a re-analysis of the deposited data

How the results depend on the processing

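Of the 10 clock genes, edgeR called 0 in each of the 13 tests, and other settings moved that count as follows. The share of all genes called under each other setting is not set beside these counts. They therefore describe the settings and are not a result about the clock genes. With no filter on low counts it was 1 in DE minus C, 3 in RIC minus C, 5 in DE+PFD minus DE, 5 in RIC+DE minus DE, 3 in RIC+DE+PFD minus DE, 2 in DE+PFD+RIC minus DE, 8 in RIC+DE+PFD minus DE+PFD, 4 in DE+PFD+RIC minus DE+PFD, 1 in DE+RIC minus RIC+DE, 5 in DE+PFD+RIC minus RIC+DE+PFD, 5 in October minus March and 10 for any group. The standard error of Nr1d1 in DE+PFD minus DE was 0.25 without the filter and 1.09 with it. Fitting the compared groups alone gave 3 in RIC+DE minus DE and 4 in DE+RIC minus RIC+DE, where no batch term could be fitted, and 1 in RIC+DE+PFD minus DE. October libraries alone gave 1 in RIC+DE+PFD minus DE (Cry1). DESeq2 gave 1, Clock, in RIC+DE+PFD minus DE+PFD, in DE+PFD+RIC minus RIC+DE+PFD and for any group, and 0 elsewhere. No batch term gave 1 in DE+PFD+RIC minus RIC+DE+PFD. March libraries alone, added after seeing the data, gave 1 in RIC+DE+PFD minus DE+PFD and 3 in DE+PFD+RIC minus RIC+DE+PFD, with lone libraries assumed to vary like those of the other groups. There Per2 differed by 2.91 log2 units, against -0.76 over all libraries. Leaving out each library in turn gave 0 to 1 in DE+PFD+RIC minus RIC+DE+PFD (1, Clock, without RIC 1, RIC+DE+PFD 2 or RIC+DE+PFD 3), 0 to 2 in October minus March (2 without RIC+DE+PFD 1), and 0 in the others. The cause of these shifts was not tested.

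The replicate numbers did not pair the libraries: 16 of 84 pairs with the same number correlated over 0.1, against 45 of 168 with different numbers. The median r was -0.001 and 0.001, with group means taken out and batch dates left in. With the number as a replicate block the count stayed at 0 in every test. Of the 9 genes paired with Arntl, 7 passed over all libraries and 4 within March. DESeq2 size factors, a filter of CPM 1 in 3 libraries and the November library placed in October left every count of called clock genes at 0. Depth limited Npas2 most, with 10 reads in DE 2.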
